A study of Homo sapiens with 3 samples.

Results

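SMAD2/3 binding sites were examined across VMP1 and the microRNA gene MIR21, neighbours on human chromosome 17, in MCF10A MII cells treated with TGFβ3. The region was set as chr17:57760000-57960000 in the genome build hg19, and every peak of either time point that overlapped it was taken. This gave 10 peaks of 5486 in both lists together, 3 of 2206 at 1.5 h and 7 of 3280 at 16 h. The region was chosen by its peak counts in these same lists, for holding more peaks at 16 h than at 1.5 h, so those numbers are a description and carry no test. MCF10A MII cells are human breast epithelial cells of an established line. They were transformed with H-Ras, which all samples share. The 2 ChIP-seq libraries came from cells given 5 ng/ml TGFβ3 for 1.5 h or for 16 h, with an antibody that recognises SMAD2 and SMAD3. An input DNA library of untreated cells was the third sample and was not analysed here. Neither time was replicated, so values carry no error between samples and the times could not be tested against each other.

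TGFβ receptors phosphorylate SMAD2 and SMAD3, which enter the nucleus in complexes with SMAD4. These complexes bind DNA, often at the short SMAD box CAGAC and together with other transcription factors. VMP1 encodes a membrane protein of the endoplasmic reticulum that is needed for autophagosome formation. MIR21 encodes miR-21, a microRNA raised in many carcinomas that represses target mRNAs, PDCD4 among them. The primary transcript of MIR21 can start inside late VMP1 introns, so that both genes share part of their DNA on the plus strand. SMAD proteins are also known to act on miR-21 after transcription: in human vascular smooth muscle cells they were shown to bind a CAGAC element in the primary miR-21 transcript and to favour its processing.

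The sequences below show the product of MIR21, its seed and the CAGAC element. They come from RefSeq (GRCh38.p14, plus strand, chromosome 17 for MIR21 and chromosome 7 for MIR590). In the hairpin of 72 bases, capitals mark mature miR-21-5p, which takes bases 8 to 29.
MIR21 hairpin: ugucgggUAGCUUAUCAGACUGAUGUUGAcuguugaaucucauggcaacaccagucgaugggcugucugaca
In the next pair, capitals mark the seed (bases 2 to 8), which directs target recognition. Besides miR-21-5p, 1 other human miRNA of the table, miR-590-5p, has the same seed.
hsa-miR-21-5p: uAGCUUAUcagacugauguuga
hsa-miR-590-5p: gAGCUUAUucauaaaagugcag
In the last line, capitals mark CAGAC, at bases 9 to 13 of miR-21-5p.
hsa-miR-21-5p: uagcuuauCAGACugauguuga
The element was present in 43 of 2351 distinct mature human miRNAs (1.83%) and absent from miR-590-5p. It was searched on the RNA strand only. ChIP-seq of chromatin does not measure binding to RNA, so the peaks below do not bear on this element.

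At 1.5 h, SMAD2/3 peaks in the region lay within 2.23 kb inside VMP1. At 16 h they reached from that part of VMP1 to beyond MIR21, and 5 of the 7 lay within 14.4 kb around MIR21. VMP1 was taken as chr17:57784863-57917950 and MIR21 as chr17:57918627-57918698, which leaves 676 bp between them. These limits came with the definition of the region. In the RefSeq gene table for GRCh38 the range of VMP1 extends over MIR21, so whether the microRNA counts as inside its neighbour depends on the gene model. All 3 peaks at 1.5 h were within VMP1, and they spanned 2.23 kb. Of the 7 peaks at 16 h, 4 were within VMP1 and 3 followed MIR21, over a span of 89.1 kb. Exons and introns of VMP1 were not annotated here, since no hg19 annotation was used.

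**Figure D1:**
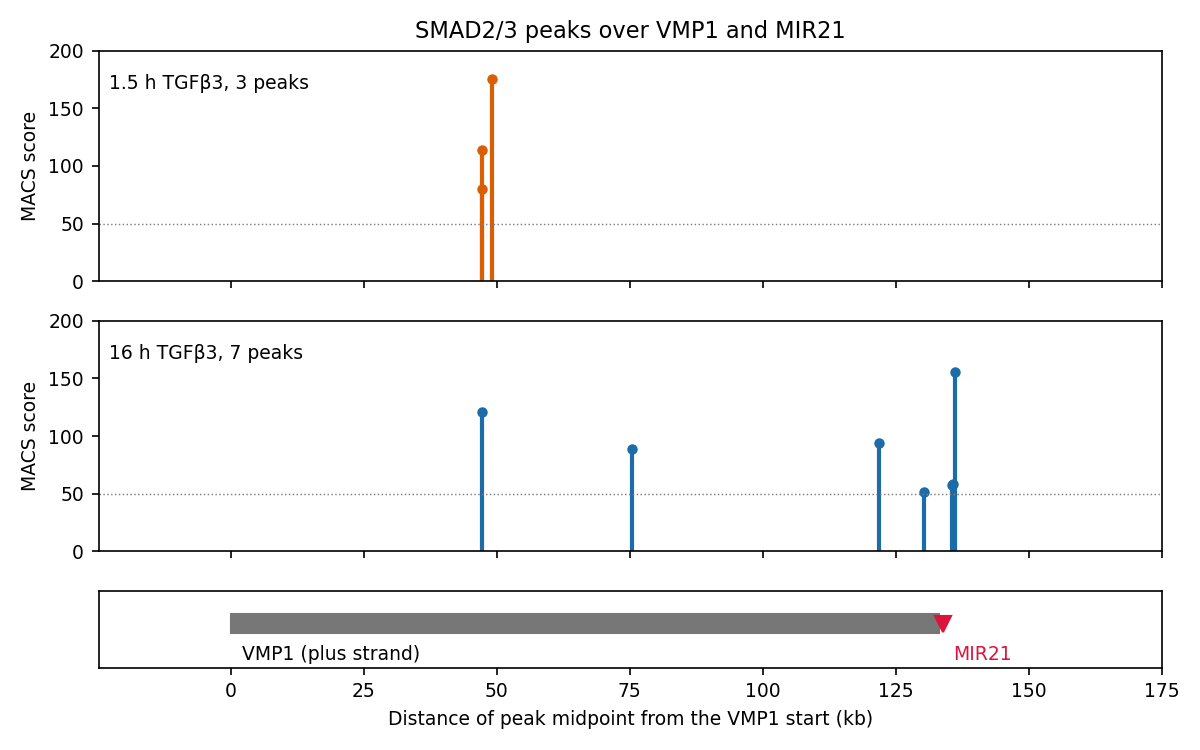
Deposited score of each SMAD2/3 peak (vertical axis, labelled MACS score) against the distance of its midpoint from the VMP1 start in kb, at 1.5 h (top, 3 peaks) and 16 h (middle, 7 peaks). VMP1 and MIR21 are drawn to scale below (the MIR21 marker is wider than the gene). The dotted line is a score of 50, about the lowest listed. The 1.5 h peaks sit 47.1 to 49.2 kb into VMP1, and the 16 h peaks reach from 47.3 to 136.1 kb.

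The place listed at both times was 47 kb into VMP1 or 35.5% of the way along the gene. The scores below are the authors', from their peak list, and no source used here defines them. They are given with their rank within the list of the same time. At 1.5 h, chr17:57831941-57832055 (115 bp) scored 79.8 and chr17:57832075-57832221 (147 bp) scored 114, with 19 bp between them. At 16 h, chr17:57832047-57832217 (171 bp) scored 121. This 16 h peak shared 143 bp with the stronger 1.5 h peak, 97.3% of that peak and 83.6% of its own length, and their midpoints were 16 bp apart. It touched the weaker 1.5 h peak over only 9 bp. Within its list, the 16 h peak ranked 282 of 3280, and the stronger 1.5 h peak ranked 346 of 2206. Both lists thus held this site well above their median scores, 56.2 at 16 h and 64.9 at 1.5 h.

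The highest 1.5 h peak of the region had no counterpart at 16 h. It was chr17:57833884-57834170 (287 bp), 1.66 kb further into VMP1, and it scored 175, rank 165 in its list. The nearest 16 h peak was the shared site, 1.67 kb away. This peak was therefore listed early only, against the direction of the region as a whole. Such peaks were not rare: of the 165 peaks at 1.5 h that scored as high or higher, 39 (23.6%) overlapped no 16 h peak. In the score class of 100 to 200, to which it belongs, 51.6% overlapped none. Over all 1.5 h peaks, 74.7% overlapped none, as did 1 of the 3 in the region (33.3%, 95% exact Clopper-Pearson interval 0.84 to 90.6%, counting error only). This interval takes the 3 peaks as independent, although the region was chosen from these lists and its other 1.5 h peaks were 19 bp apart.

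**Figure D2:**
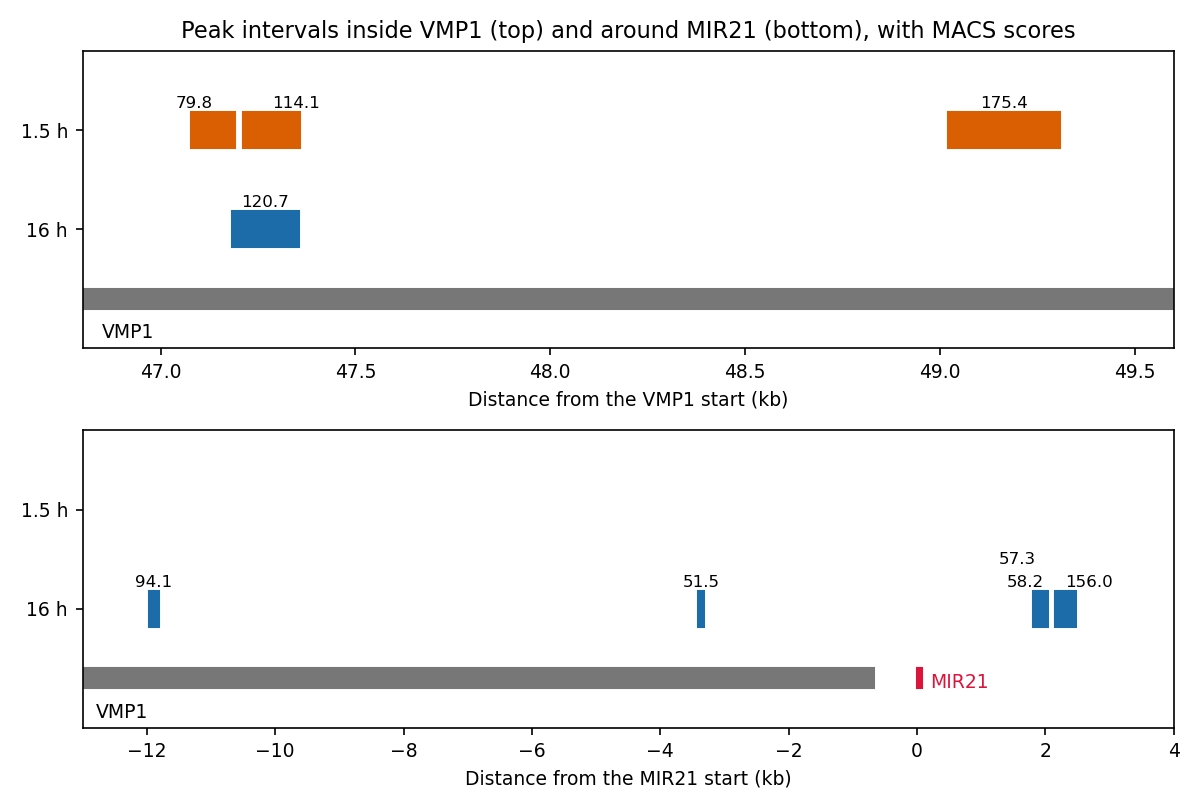
Peak intervals to scale at the part of VMP1 with 1.5 h peaks (top, distance from the VMP1 start in kb) and around MIR21 (bottom, distance from the MIR21 start in kb). The deposited score (titled MACS score) is above each interval and the time of TGFβ3 is on the vertical axis. The 16 h peak of score 121 lies over the 1.5 h peak of score 114, the 1.5 h peak of score 175 stands alone, and all 5 peaks around MIR21 are from 16 h. The peaks scoring 57.3 and 58.2 are 3 bp apart and appear joined.

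The 16 h peaks near MIR21 formed a run with no 1.5 h peak in it. With neighbours up to 10 kb apart joined, 5 peaks at 16 h made a run of 14.4 kb, chr17:57906666-57921106, with peaks on both sides of the microRNA. The joining distance was chosen after seeing the data. With joining over at most 5 kb, or with a score of at least 60, no run reached across MIR21. Over the whole 16 h list, 83.4% of peaks overlapped no 1.5 h peak, and 91.9% of those had none within 10 kb. No peak of either list overlapped the MIR21 hairpin itself. Upstream of MIR21, chr17:57906666-57906813 (148 bp) scored 94.1 at a distance of 11.8 kb and 91.6% of the way along VMP1. Next came chr17:57915207-57915313 (107 bp), 3.31 kb before MIR21 and 98.0% of the way along VMP1, with a score of 51.5. That is close to the lowest score listed, 50, and 85.2% of all 16 h peaks scored at least as high. Of the 2, only the farther one was thus clearly above the threshold of the list. The position of the nearer one relative to transcription starts of MIR21 was not determined.

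Downstream of MIR21, the 3 remaining 16 h peaks lay within 676 bp and included the highest of the region. They were chr17:57920431-57920534 (104 bp, score 57.3), chr17:57920538-57920674 (137 bp, score 58.2) and chr17:57920774-57921106 (333 bp, score 156). The gaps between them were 3 and 99 bp, and together they began 1.73 kb and ended 2.41 kb after the microRNA. The highest ranked 186 of 3280, and 93.7% of the 16 h list was as narrow or narrower. The nearest 1.5 h peak was 86.6 kb away, inside VMP1. Among the 187 peaks at 16 h that scored as high or higher, 31 (16.6%) had no 1.5 h peak within 50 kb. Joining neighbours under 500 bp apart makes 1 site of them. Joined in this way over the whole lists, sites of 3 or more pieces made up 24 of 3052 at 16 h (0.786%) and 85 of 1782 at 1.5 h (4.77%).

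A single 16 h peak stood between these groups. It was chr17:57860235-57860411 (177 bp), 56.7% of the way along VMP1, with a score of 89.1 and rank 466 in its list. The closest 1.5 h peak was 26.1 kb away.

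The share of late-only peaks in the region was close to that of the whole 16 h list. Of the 7 peaks at 16 h, 6 overlapped no 1.5 h peak (85.7%, 95% exact Clopper-Pearson interval 42.1 to 99.6%, counting error only), against 83.4% of all 3280. The interval takes the 7 peaks as independent, although 3 of them lay within 676 bp and the region was chosen from these lists. By score, 3 of the 6 were in the class of 50 to 60, where 95.2% of 16 h peaks overlapped none. A further 2 were in the class of 80 to 100, where 57.1% overlapped none, and the last was in the class of 100 to 200, where 47.3% overlapped none. None of the 6 had a 1.5 h peak within 10 kb, which also held for 91.9% of all 16 h peaks that overlapped none. Against the whole list, the region stood out by its number of late peaks in one place, which is what it was chosen for, and little by their share. Whether that share differs from the share among 16 h peaks of like score was not tested, and the interval is wide.

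**Figure D3:**
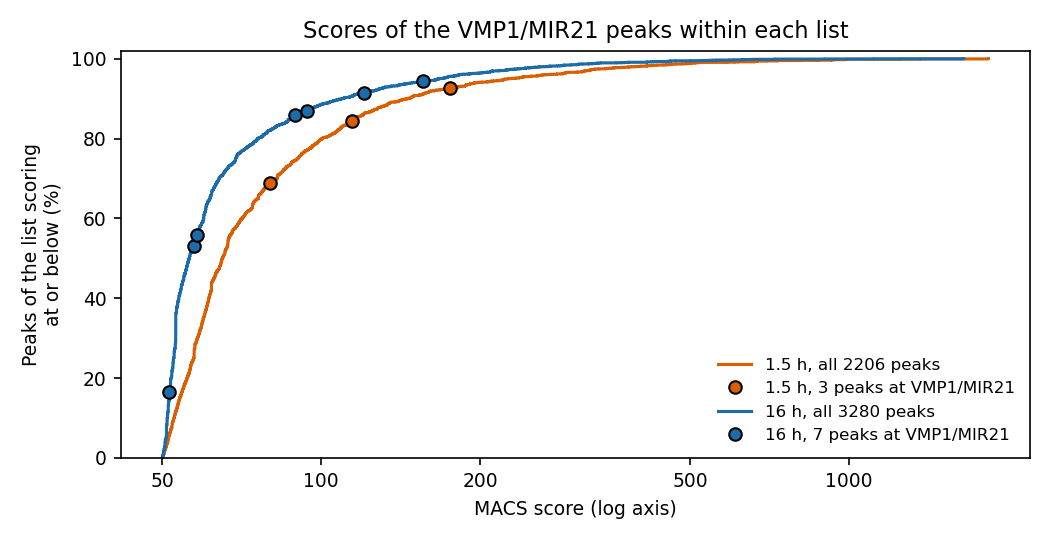
Percent of each list at or below a given deposited score (log axis, labelled MACS score), for all 2206 peaks at 1.5 h and all 3280 at 16 h. The peaks at VMP1 and MIR21 are shown as points. The 1.5 h points lie between 68.9 and 92.6% of their list, and the 16 h points between 16.4 and 94.4%.

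The number of 16 h peaks in the region was seldom reached elsewhere. Since the region was chosen by its peak counts, the shares of windows below are a description and carry no test. Peaks were counted as listed, without joining close neighbours. With neighbours under 500 bp apart joined, the region held 5 sites at 16 h and 2 at 1.5 h, and windows were not recounted in this way. When the genome was divided into 15386 windows of 200 kb, 8 (0.052%) held 7 or more 16 h peaks, the one with all the peaks described here included. Most windows held no peak of either time, and among the 3309 that held at least 1 the share was 0.242%. The 1.5 h counts of those 8 windows ran from 0 to 13, with a median of 1. As many as 3 peaks at 1.5 h were found in 175 windows (1.14%). An excess of 4 or more 16 h over 1.5 h peaks was found in 14 windows (0.091%), and the opposite excess in 32 (0.208%). With low scores left out, the excess at VMP1 and MIR21 was smaller or absent. One score minimum does not cut both lists at the same depth: 64.4% of the 1.5 h list and 39.1% of the 16 h list scored 60 or more, and 20.1% and 11.5% scored 100 or more. Among peaks scoring 60 or more the region held 4 at 16 h and 3 at 1.5 h, and 0.136% and 0.624% of windows held as many of the respective time. Among those scoring 100 or more it held 2 at each time. At least 2 such 16 h peaks were found in 42 windows (0.273%) and at least 2 such 1.5 h peaks in 66 (0.429%). Sequencing depth is unknown from the lists, so a different number of peaks at each time cannot be told apart from a different depth.

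**Figure D4:**
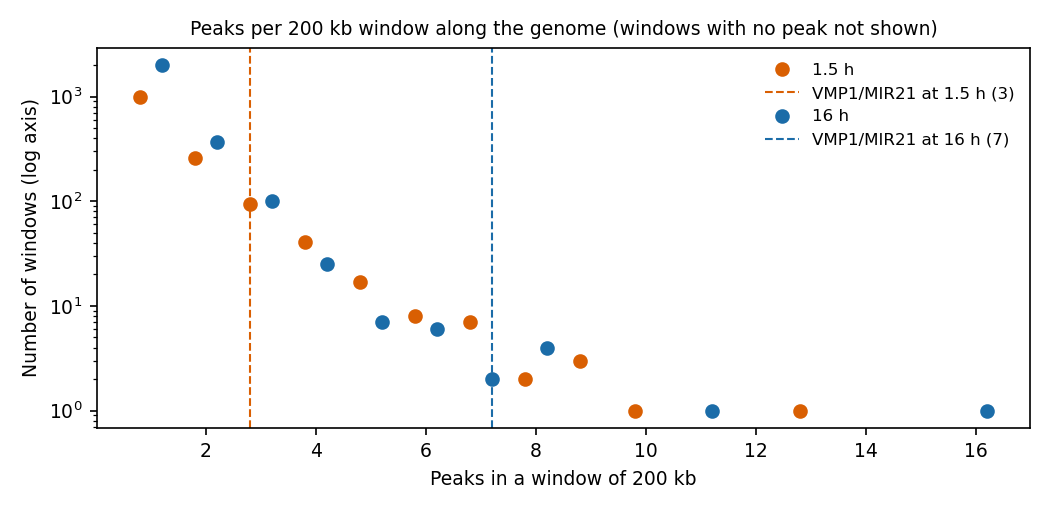
Number of 200 kb windows (log axis) holding a given number of SMAD2/3 peaks at 1.5 h and 16 h, with points and lines of the times shifted sideways so that both can be seen. Dashed lines mark the counts at VMP1 and MIR21, 3 at 1.5 h and 7 at 16 h. At 16 h, 8 windows reach the dashed line or lie beyond it.

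The peaks at VMP1 and MIR21 were far from the next listed peak after them, and less unusually far from the one before. They made up 3 of 88 peaks on chromosome 17 at 1.5 h (3.41%) and 7 of 103 at 16 h (6.80%). Over both lists, the next peak was 1.08 Mb before the first of them and 2.98 Mb after the last. Over all chromosomes, with overlapping peaks counted as having no distance between them, the median distance between neighbouring peaks was 199 kb. Of all such distances, 15.8% and 2.34% were at least as long as the ones before and after, respectively. Just outside the region, the nearest 1.5 h peaks scored 61.0 (1003 kb before) and 63.2 (2.94 Mb after), and the nearest 16 h peaks scored 51.0 (4.14 Mb before) and 86.5 (3.01 Mb after). Widening the region would therefore have added no peak over a long distance.

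Neither end of the region held a peak. No peak of either list lay in the 47.1 kb from the VMP1 start to the first peak, nor in the 71.9 kb from the edge of the region to it. In the RefSeq gene order, PTRH2, which encodes a mitochondrial peptidyl-tRNA hydrolase, and CLTC, the clathrin heavy chain gene, precede VMP1. On the other side, the last 38.9 kb of the region were also without a peak. TUBD1, the delta-tubulin gene, and RPS6KB1, which encodes the ribosomal protein S6 kinase, follow MIR21 in that order. In the RefSeq promoter of VMP1 (250 bases before to 50 after its start), CAGAC or its reverse complement GTCTG occurred 1 time, and 45.3% of 35116 promoters of this length held it. GGCGC or its reverse complement GCGCC was not found (48.6% of promoters held it), nor was TGANTCA, the AP-1 motif (7.71%), searched on both strands. Each motif was counted on its own, whether or not its matches overlapped those of another, and a match in this window is a description of its letters only.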

How the data were processed

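SMAD2/3 ChIP-seq was analysed from 1 peak list per time point, 1.5 h and 16 h. Reads were processed with Bowtie 1.1.0, Picard and MACS 1.4.2 on hg19, per the submitters' processing notes. The sources used here give no settings, no treatment of duplicate reads and no role for the input. The authors deposited intervals with a score per peak and no read counts. The lowest deposited scores were 50.02 and 50, the level that a p of 1e-05 takes on a scale of minus 10 log10(p). No source states what the score is. Ranks were taken within a list, and score classes and minimums were applied to both lists alike, although they fall at different depths of each.

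Starts were made 1-based. Overlap meant at least 1 bp. The limits of the region, VMP1 and MIR21 came with the definition of the region. The region and its features were chosen with earlier results of these data known. All peaks in it are described. The genes named besides VMP1 and MIR21 were the 2 on each side in the RefSeq gene order (GRCh38.p14), pseudogenes left out. No coordinate of that table was printed or joined to a peak. Its ranges gave the order of genes and the overlap of VMP1 with MIR21. VMP1 and MIR21 both matched that table. Peak sequences were not used here. Windows of 200 kb were tiled from each chromosome's first base to the last listed peak, and peaks were placed by midpoint. The alternatives were score minimums of 60 and 100, near-equal list lengths (2206 peaks at 1.5 h and 2095 at 16 h, peaks tied at the last score dropped), merging of neighbours under 500 bp apart, other limits of the region, and other definitions of overlap. The joining of runs and its alternatives were chosen after seeing the data. Python 3.11.15, numpy 2.4.6, pandas 2.3.3, scipy 1.17.1 and matplotlib 3.10.9 were used, and the overlap code was tested on simulated lists.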

Additional observations from a re-analysis of the deposited data

How the results depend on the processing

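The excess of 4 peaks at 16 h fell to 1 with a score of at least 60, to 0 with a score of at least 100, and to 1 within VMP1 and MIR21 alone. It was 3 with near-equal list lengths (2206 and 2095 peaks, ties at the last score dropped) and 3 with neighbours merged. The score minimums keep a larger part of the 1.5 h list than of the 16 h list. The 6 late-only peaks became 3 with a score of at least 60, 1 with a score of at least 100, and 3 within VMP1 and MIR21 alone. The 4 peaks at 16 h inside VMP1 became 1 with a score of at least 100. The highest 16 h score, 156, is at 94.4% of its list when given as a percentile, a change of scale. The 5 peaks of the run across MIR21 became 0 with runs joined over at most 5 kb and 0 with a score of at least 60, since no run then reached across the microRNA. Both of these were chosen after seeing the data. The other 23 of 33 recomputed values stayed within 1.5 times the reported count or within the interval of the share, and none changed direction. Some of them could not have changed. Widening the region by 50 kb added no peak, joining keeps the highest score, and limiting to VMP1 keeps the count inside it. The interval of the share was wide, so 50% with a score of at least 100 also fell within it. The tally is therefore not a measure of stability. No paired analysis was possible because neither time was replicated, which also meant that leaving out a library was not possible. The lists hold no depth, so whether a site listed at 1 time was unbound at the other was not tested.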
